A study of Bos taurus with 12 samples.

Results

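Transcripts of red blood cells were followed in intramuscular and subcutaneous fat of Holstein (HS) and Japanese Black (JB) steers. They were taken as a possible reading of the blood left in the tissue. The genes were the globins HBA, HBB and HBM and the erythroid heme enzyme ALAS2, and every probe set annotated with exactly 1 of these symbols was taken: 7 of the 24128 probe sets of the Affymetrix bovine array, or 4 of the 9155 genes it names. HBB was read by 4 of them and each other gene by 1. After the 30% of probe sets with the lowest mean signal were left out as dim, 5 of the 7 were tested among 16811.

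Haemoglobin carries oxygen in red cells and is built from alpha-like and beta-like globin chains, each holding a heme group. ALAS2 makes the committed precursor of that heme in maturing red cells, while other cells use the sister enzyme ALAS1. Mammalian red cells shed their nucleus but the youngest of them, the reticulocytes, still hold globin and ALAS2 mRNA. Blood that holds reticulocytes can therefore add these transcripts to a solid tissue. How many reticulocytes the blood of these steers held is not given in the sources used here, so the signals give no amount of blood. Fat cells themselves are not known as haemoglobin producers. In bulk tissue, fewer cells of a type and less RNA per cell cannot be told apart.

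All groups were fed the energy-rich ration. Intramuscular fat (IMF), labelled as isolated, and subcutaneous fat (SCF), from under the skin, gave 4 groups of 3 samples: JB IMF 1 to 3, HS IMF 1 to 3, JB SCF 4 to 6 and HS SCF 4 to 6. Neither the age of the steers nor whether each sample came from its own animal is given in the sources used here, so a p-value covers no more than the spread among the samples at hand, part of which may be technical. The design text asks how the breeds differ within each depot and how the depots differ over both breeds.

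HS IMF 3 stood apart over the array as a whole. The median of its deposited signals was 58.8, against 77.6 to 88.3 in the other 11 arrays. Its mean correlation with its own group was the lowest, 0.805, and the other HS IMF samples had 0.832 and 0.852. The HS SCF samples had 0.875 to 0.915 and the JB samples 0.944 to 0.962, so every HS array lay below every JB array. The highest deposited signal on an array was 17138 to 18544 in JB and 19727 to 222742 in HS. The arrays thus also differed by breed, and the part of this in the breed comparisons was not tested. After quantile normalization HS IMF 3 was the highest of the 12 samples for 21.8% of all tested probe sets. For the GAPDH controls the 3' signal over the 5' signal, a sign of RNA breakdown, reached 4.06 in HS SCF 5; the remaining arrays had 1.19 to 2.40. The 11 adipocyte genes on the array summed to signals of 55892 to 84716 in the SCF samples and 23284 to 61020 in the IMF samples, so fat cell transcripts were plentiful in all 12 samples. The differences of the 4 genes that involve HS IMF 3 are therefore given with and without it.

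HBA and HBM are neighbours in the alpha globin cluster, by RefSeq on ARS-UCD2.0, with HBZ on one side and HBA1 and HBQ1 on the other. HBA and HBA1 are copies of the alpha chain gene, so the HBA probe set may read both, which was not tested. Its signals were 22.3, 49.0 and 14.01 in JB IMF, 39.7, 30.5 and 85.4 in HS IMF, 23.3, 30.4 and 40.4 in JB SCF and 41.4, 27.4 and 24.3 in HS SCF. The 4 groups overlapped, HS IMF 3 was the highest sample and JB IMF 3 the lowest. The probe set was dim, with a mean that exceeded that of only 30.6% of the probe sets, just inside the filter.

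HBM encodes the mu chain, an alpha-like globin transcribed in red cell precursors whose protein role is not settled. Its signals were 36.8, 51.0 and 57.3 in JB IMF, 51.7, 95.4 and 229 in HS IMF, 43.7, 47.4 and 46.4 in JB SCF and 79.7, 59.96 and 44.0 in HS SCF. HS IMF 3 stood well above the 11 others, HS IMF 2 came next, and the JB subcutaneous samples were close together. The JB and HS values overlapped in both depots.

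HBB encodes the adult beta chain and was read by 4 probe sets, named here by the end of their identifier, whose profiles differed. Probe set 1.S1, the one whose target comes from a RefSeq transcript, gave 76.3, 121 and 153 in JB IMF, 467, 158 and 279 in HS IMF, 354, 178 and 329 in JB SCF and 564, 157 and 50.7 in HS SCF. Every JB sample lay below every HS sample in IMF. Within JB, every intramuscular sample lay below every subcutaneous one, while HS SCF held both the highest and the lowest sample of all 12.

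Probe set 5.A1_x, the second that was tested for HBB, gave 25.2, 23.6 and 1275 in JB IMF, 158, 425 and 4562 in HS IMF, 31.0, 67.3 and 98.4 in JB SCF and 99.0, 1045 and 16.3 in HS SCF. HS IMF 3, JB IMF 3 and HS SCF 5 were far above the rest, and the groups overlapped. The suffix "_x" marks probes that may also bind other transcripts. The remaining HBB probe sets ranged from 0 to 12.7 and from 0.01 to 13.3 and were too dim to be tested. The tested pair correlated at r = 0.38 (permutation p = 0.221) and rho = 0.51 (permutation p = 0.0938) across the 12 samples, or r = 0.29 without HS IMF 3 and JB IMF 3.

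ALAS2 gave signals of 35.9, 34.3 and 41.9 in JB IMF, 44.9, 48.1 and 88.1 in HS IMF, 41.5, 30.3 and 54.2 in JB SCF and 35.7, 48.5 and 47.7 in HS SCF. All JB intramuscular samples lay below all HS ones, and HS IMF 3 was again the highest of the 12. The subcutaneous groups overlapped.

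**Figure D1:**
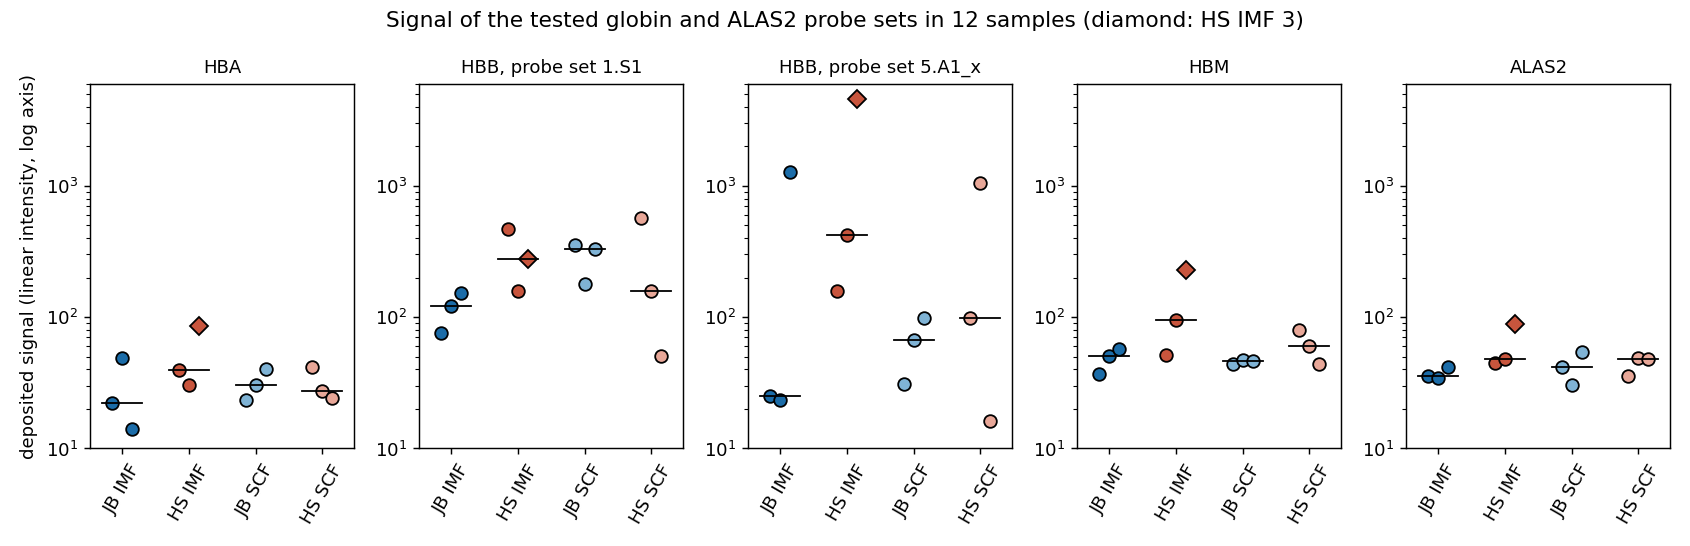
Deposited signal (linear intensity, log axis) of the 5 tested probe sets in each of the 12 samples, by group. Points are samples, lines are group medians and the diamond is HS IMF 3, the highest sample in 4 of the 5 panels; HBB is shown by both tested probe sets.

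Between the breeds in IMF, all 5 tested probe sets were lower in JB than in HS by their means, and none passed the test. HBB on its RefSeq-based probe set had a log2 mean of 6.96 ± 0.42 (SD, n = 3) in JB and 8.49 ± 0.79 in HS, a difference of −1.53 ± 0.66 (SE) with a 95% interval from −2.98 to −0.09 (limma, Benjamini-Hochberg adjusted p = 0.485). HBM differed by −1.27 ± 0.51 (limma, Benjamini-Hochberg adjusted p = 0.485), from 5.97 ± 0.23 (SD, n = 3) in JB and 7.24 ± 1.37 in HS. HBA differed by −0.80 ± 0.42 and ALAS2 by −0.69 ± 0.33, at limma adjusted p of 0.500 and 0.490.

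The second HBB probe set had the largest difference of the 5 and the widest error, −2.62 ± 1.54, with an interval from −5.98 to 0.74. By limma with Benjamini-Hochberg adjustment 0 of 5 passed, where 0.0238% of all tested probe sets did. At an unadjusted p under 0.05 there were 2 of 5, HBB and HBM, where 10.2% of all tested did. JB and HS did not overlap for HBB on its RefSeq-based probe set and for ALAS2, 2 of 5, against 13.8% of all tested. The median over the 4 genes, each by its brightest tested probe set, was −1.04, beside 0.10 for all probe sets tested.

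These differences leaned on HS IMF 3. Without it HBB differed by −1.29 ± 0.77, the second HBB probe set by −1.25 ± 1.59, HBM by −0.53 ± 0.30 and ALAS2 by −0.26 ± 0.22, while HBA fell below the dim filter and differed by −0.29 ± 0.32 in a fit of all probe sets. No sign turned, and HBB kept most of its difference while HBM and ALAS2 lost more than they kept. The median over the 3 genes still tested was −0.53, beside 0.01 for all probe sets.

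The array scaling also touched this comparison. Over all tested probe sets the median difference was 0.10 with quantile normalization, 0.17 with median centring and 0.38 with no further scaling of the deposited values. The 5 erythroid differences as deposited were −0.60 for HBA, −1.18 and −2.46 for the HBB probe sets, −0.95 for HBM and −0.48 for ALAS2. All 5 lay below 0 and below the median of all tested probe sets under both scalings and under median centring.

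Between the breeds in SCF the differences had mixed signs and none passed. HBB differed by 0.53 ± 0.66 (SE), from 8.05 ± 0.53 (SD, n = 3) in JB and 7.52 ± 1.60 in HS, with an interval from −0.92 to 1.97; HS SCF had the widest spread of the 4 groups. HBM differed by −0.31 ± 0.51 and ALAS2 by −0.07 ± 0.33. HBA was nearly level at 0.01 with an interval from −0.90 to 0.91, and the second HBB probe set differed by −1.07 ± 1.54. By limma with Benjamini-Hochberg adjustment 0 of 5 passed, at adjusted p = 1.00 for each, where 0.00595% of all tested did; at an unadjusted p under 0.05 it was 0 of 5 against 3.56%. None of the 5 separated the breeds, against 12% of all tested.

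The sign of the subcutaneous difference of HBB depended on single samples. It was −0.23 without HS SCF 6, the lowest sample, and 1.37 without HS SCF 4, the highest. The second HBB probe set turned to 0.28 without HS SCF 5.

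Whether the breed difference was unlike in the depots was tested as an interaction, the IMF difference minus the SCF one. It was −2.06 ± 0.94 (SE) for HBB, −1.55 ± 2.18 for the second HBB probe set, −0.96 ± 0.72 for HBM, −0.81 ± 0.59 for HBA and −0.62 ± 0.47 for ALAS2. By limma with Benjamini-Hochberg adjustment 0 of 5 passed, each at adjusted p = 0.990, and 0 of all 16811 did, a share of 0%. HBB alone had an unadjusted p under 0.05 (0.0483), 1 of 5, where 359 of all tested or 2.14% had. Without HS IMF 3 the interaction was −1.83 ± 1.04 for HBB, −0.17 ± 2.14 for the second HBB probe set, −0.21 ± 0.40 for HBM, −0.29 ± 0.43 for HBA and −0.19 ± 0.29 for ALAS2. HBB thus kept most of its size without that sample, and the others shrank by more than they kept. The interaction of HBB moved more with single SCF samples, to −2.90 without HS SCF 4 and −1.31 without HS SCF 6.

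**Figure D2:**
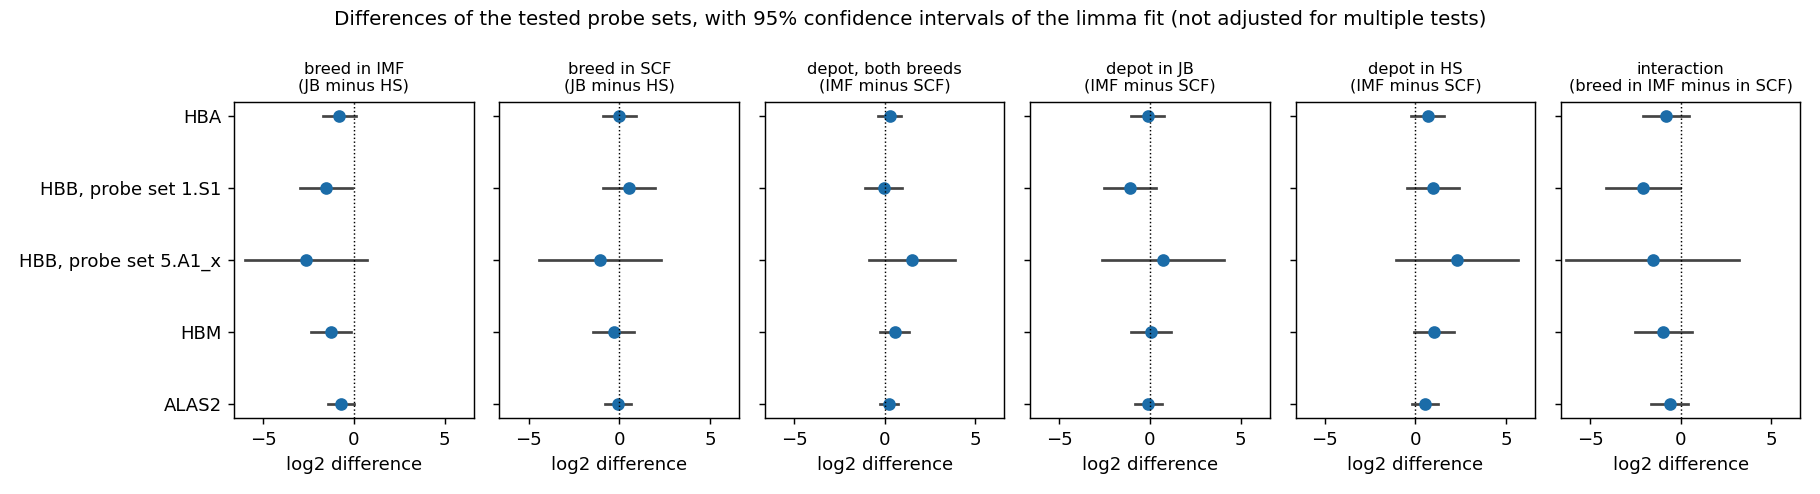
Log2 difference of each tested probe set in the 6 comparisons, with points for the limma estimate and bars for its 95% interval, not adjusted for multiple tests. In the breed comparison within IMF all 5 points lie below 0, from −2.62 to −0.69.

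Over both breeds, the depots did not differ past the threshold for any erythroid probe set. HBM differed by 0.54 ± 0.36 (SE), the second HBB probe set by 1.5 ± 1.09, HBA by 0.27 ± 0.29 and ALAS2 by 0.23 ± 0.23, all higher in IMF by their means. HBB on its RefSeq-based probe set was at −0.06, with an interval from −1.08 to 0.96. By limma with Benjamini-Hochberg adjustment 0 of 5 passed (adjusted p from 0.362 to 0.954), where 11% of all tested did, and none separated the depots, against 6.24%. At an unadjusted p under 0.05 it was 0 of 5 against 27.2%. Without HS IMF 3 the differences were 0.17 for HBM, 0.81 for the second HBB probe set, 0.01 for HBA, 0.01 for ALAS2 and −0.19 for HBB.

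Within JB, HBB on its RefSeq-based probe set was lower in IMF with no overlap, at 6.96 ± 0.42 (SD, n = 3) against 8.05 ± 0.53. The difference of −1.09 ± 0.66 (SE) did not pass (limma, Benjamini-Hochberg adjusted p = 0.550), but with array weights it was −1.21 at an adjusted p of 0.0314, where the other settings gave an adjusted p of up to 0.885. The array weights raised the count over all probe sets in this comparison from 516 to 4340. None of the other fits that were run called any of the 5 probe sets in any of the 6 comparisons. The other 4 probe sets overlapped, with differences of −0.13 for HBA, −0.08 for ALAS2, 0.06 for HBM and 0.73 for the second HBB probe set. By limma 0 of 5 passed in either direction, against 3.07% of all tested (2.15% higher and 0.916% lower), and 1 of 5 separated the depots, against 30.3%. At an unadjusted p under 0.05 it was 0 of 5 against 13.3%.

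Within HS, all 5 were higher in IMF by their means and none passed. HBM differed by 1.03 ± 0.51 (SE), HBB by 0.97 ± 0.66, HBA by 0.67 ± 0.42, ALAS2 by 0.53 ± 0.33 and the second HBB probe set by 2.28 ± 1.54. By limma with Benjamini-Hochberg adjustment 0 of 5 passed (adjusted p from 0.266 to 0.406), where 3.32% of all tested did (1.8% higher and 1.52% lower), and at an unadjusted p under 0.05 it was 0 of 5 against 21.4%. None separated the depots, against 20.5%. Without HS IMF 3 the differences were 0.28 for HBM, 0.72 for HBB, 0.16 for HBA, 0.10 for ALAS2 and 0.90 ± 1.59 for the second HBB probe set. Single SCF samples moved HBB further, to 0.22 without HS SCF 6 and 1.82 without HS SCF 4. The second HBB probe set reached 3.63 without HS SCF 5. The depot comparisons within a breed share samples with the breed comparisons, so they are not separate evidence.

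A mean of the normalized log2 signals of the 4 genes, each by its brightest tested probe set, set the samples in order. It was 8.07 in HS IMF 3, then 6.84 in HS SCF 4, 6.68 in HS IMF 1, 6.53 in JB SCF 6, 6.50 in HS IMF 2 and 6.33 in JB SCF 4. It went on with 6.23 in HS SCF 5, 6.18 in JB IMF 2, 6.11 in JB SCF 5, 6.07 in JB IMF 3, 5.79 in JB IMF 1 and 5.78 in HS SCF 6. The samples below HS IMF 3 followed each other in steps smaller than the spread within groups, 0.53 (SD pooled over the 4 groups, HS IMF 3 included). That spread was larger than those within the JB groups. By group the mean was 7.08 ± 0.86 (SD, n = 3) in HS IMF, 6.32 ± 0.21 in JB SCF, 6.28 ± 0.53 in HS SCF and 6.01 ± 0.20 in JB IMF. JB IMF and HS IMF did not overlap, and the subcutaneous groups had means between theirs and overlapped each other.

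The 4 genes were compared pair by pair across the 12 samples. HBM and ALAS2 correlated at r = 0.88 (permutation p = 0.0209, adjusted over the 6 pairs 0.0627) and rho = 0.42 (permutation p = 0.177). HBA and HBM correlated at r = 0.83 (permutation p = 0.0199, adjusted 0.0627) and rho = 0.54 (permutation p = 0.0754). HBA and ALAS2 correlated at r = 0.77 (permutation p = 0.0508, adjusted 0.0761) and rho = 0.21 (permutation p = 0.513).

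Those relations rested largely on HS IMF 3. Without it alone r was 0.24 for HBM and ALAS2, 0.24 for HBA and HBM and −0.11 for HBA and ALAS2. The r was also taken without the 2 samples farthest from the median of the first gene, here HS IMF 3 and 1 other. It was then −0.02 for HBM and ALAS2, 0.34 for HBA and HBM and −0.10 for HBA and ALAS2. For HBA and HBB, on probe set 1.S1, r was 0.58 (permutation p = 0.0373, adjusted 0.0746) and rho 0.57 (permutation p = 0.0594), and r = 0.54 without such a pair of samples was the smallest shift of the 6. HBB and HBM had r = 0.50 (permutation p = 0.0865, adjusted 0.104) and 0.17 without, and HBB and ALAS2 r = 0.41 (permutation p = 0.197, adjusted 0.197) and 0.29 without. None of the 6 pairs had an adjusted p under 0.05 by either measure.

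**Figure D3:**
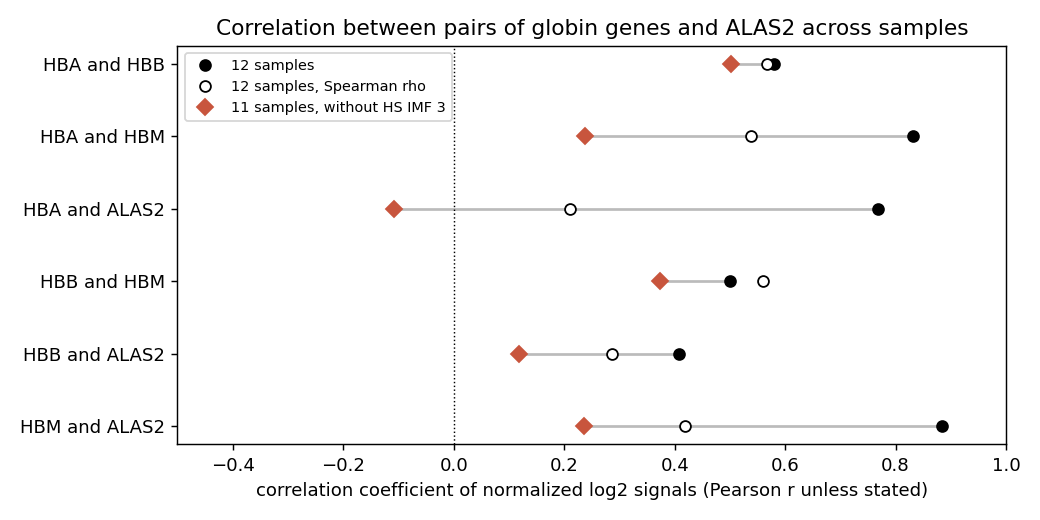
Correlation coefficients between the normalized log2 signals of each pair of genes, as Pearson r over 12 samples, Spearman rho over 12 samples and Pearson r over the 11 samples without HS IMF 3. Without that sample r runs from −0.11 to 0.50, where it ran from 0.41 to 0.88 with it.

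The second HBB probe set, taken up for this after its values were seen, followed HBM more closely. It correlated with HBM at r = 0.77 (permutation p = 0.00364, adjusted over its 4 pairs 0.0143) and rho = 0.83 (permutation p = 0.00158, adjusted 0.00632), and at r = 0.64 without HS IMF 3 and JB IMF 3. With ALAS2 it had r = 0.73 (permutation p = 0.00717, adjusted 0.0143), rho = 0.55 (permutation p = 0.0655, adjusted 0.125) and r = 0.50 without those samples. With HBA it had r = 0.44 (permutation p = 0.146, adjusted 0.195).

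HBB lies among other beta-like globin genes, with HBE1, HBE4 and HBE2 within 3 genes of it in the RefSeq annotation. HBE1 is an embryonic-type globin and HBG, in the array's annotation, a fetal-type one. The HBG probe set 2.A1_x gave 55.2, 48.6 and 2140 in JB IMF, 268, 601 and 5171 in HS IMF, 47.7, 119 and 184 in JB SCF and 167, 1775 and 16.04 in HS SCF. It was high in the same 3 samples as the second HBB probe set, and the 2 profiles had r = 0.99 and rho = 0.97, against r = 0.39 with HBB on its RefSeq-based probe set. Both carry the suffix for probes that may bind several transcripts and share a number in their identifiers, so these 2 readings are not independent.

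HBE1 had signals of 59.5, 60.3 and 82.8 in JB IMF, 121, 116 and 240 in HS IMF, 38.3, 45.3 and 64.7 in JB SCF and 51.1, 89.2 and 45.3 in HS SCF. The breeds did not overlap in IMF, where 13.8% of all tested probe sets separated them. The difference there was −1.34 ± 0.42 (SE, limma, Benjamini-Hochberg adjusted p = 0.485), and −0.79 ± 0.27 without HS IMF 3. Between the depots HBE1 was at 0.91 ± 0.29 (limma, Benjamini-Hochberg adjusted p = 0.0664). Without HS IMF 3 the same comparison passed at a smaller size, 0.64 ± 0.18 (limma, adjusted p = 0.0488), and without HS IMF 3 and HS SCF 4 it did not, at 0.61 ± 0.19 (limma, adjusted p = 0.0595). The other tested HBG probe set, 3.A1_x, was highest in HS IMF 3 at 256, with 58.1 to 112 in the rest, and differed by −1.21 ± 0.45 between the breeds in IMF (limma, Benjamini-Hochberg adjusted p = 0.485), or by −0.56 ± 0.25 without HS IMF 3.

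**Figure D4:**
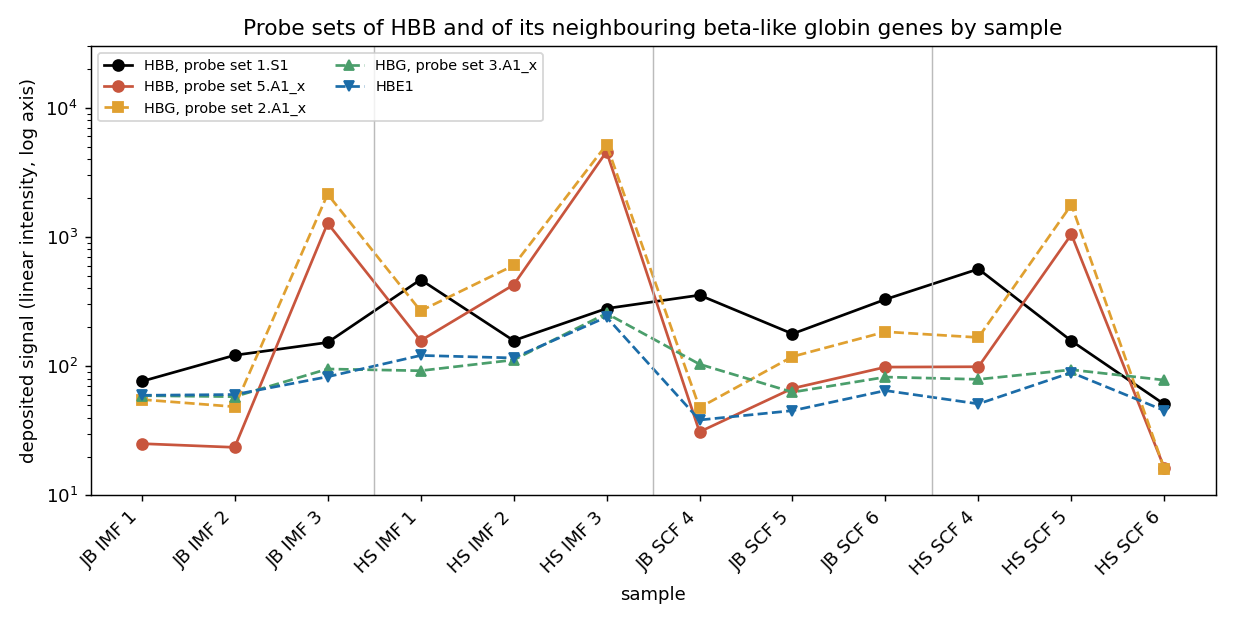
Deposited signal (linear intensity, log axis) of the tested probe sets of HBB, HBG and HBE1 in the 12 samples. The second HBB probe set and HBG probe set 2.A1_x peak together in JB IMF 3, HS IMF 3 and HS SCF 5, while HBB on probe set 1.S1 is highest in HS SCF 4 (564) and HS IMF 1 (467).

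Other genes of the red cell lineage had mixed levels and differences of both signs. Of 33 listed, 17 were on the array and 9 were tested. SLC4A1, the anion exchanger band 3 that marks red cell membranes, was at 0 to 9.20 in all 12 samples, and EPB42, the membrane protein 4.2, at 0.01 to 17.4. GATA1, the master transcription factor of the lineage, read 19.8 to 48.2, and these 3 were too dim to be tested. AHSP, the chaperone of free alpha globin, was 141 to 338, and GYPC, glycophorin C, which many cell types share, was 1961 to 4585.

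Between the breeds in IMF 0 of the 9 passed by limma and 2 had an unadjusted p under 0.05, where 0.0238% and 10.2% of all tested probe sets did. Of the 9, 6 were negative, and their median was −0.36, or −0.05 without HS IMF 3. Over both breeds, 1 of 9 rose in IMF and 1 fell by limma, where 4.66% and 6.33% of all tested did. TMOD1, tropomodulin, which caps actin in red cells and in muscle, rose by 1.86 ± 0.28 (SE, limma, Benjamini-Hochberg adjusted p = 0.00157). Its signals of 493.1 to 1159 in IMF did not overlap those of 92.9 to 381 in SCF, where 6.24% of all tested probe sets separated the depots. It rose within JB by 2.06 (limma, adjusted p = 0.0151), and within HS by 1.65 (limma, adjusted p = 0.0461), a call lost in 15 of 21 other settings (adjusted p up to 0.229). RHAG, the Rh-associated glycoprotein of the red cell membrane, fell by 1.38 ± 0.27 (limma, adjusted p = 0.00681). Its signals were 3.06, 7.28 and 10.4 in HS IMF, 22.0, 84.6 and 105 in JB IMF and 62.4 to 122 in SCF, so it was lowest in the group where the mean of the 4 genes was highest. Between the breeds in IMF it was at 1.68 ± 0.38, a sign opposite to that of the globins (limma, adjusted p = 0.485). Within HS it fell by 2.13 in IMF (limma, adjusted p = 0.0102). MYL4, an atrial and embryonic myosin light chain also listed for red cell precursors, was at 1.69 ± 0.50 (limma, adjusted p = 0.0509) and passed without HS IMF 3 at 1.15 ± 0.22 (limma, adjusted p = 0.00978).

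**Figure D5:**
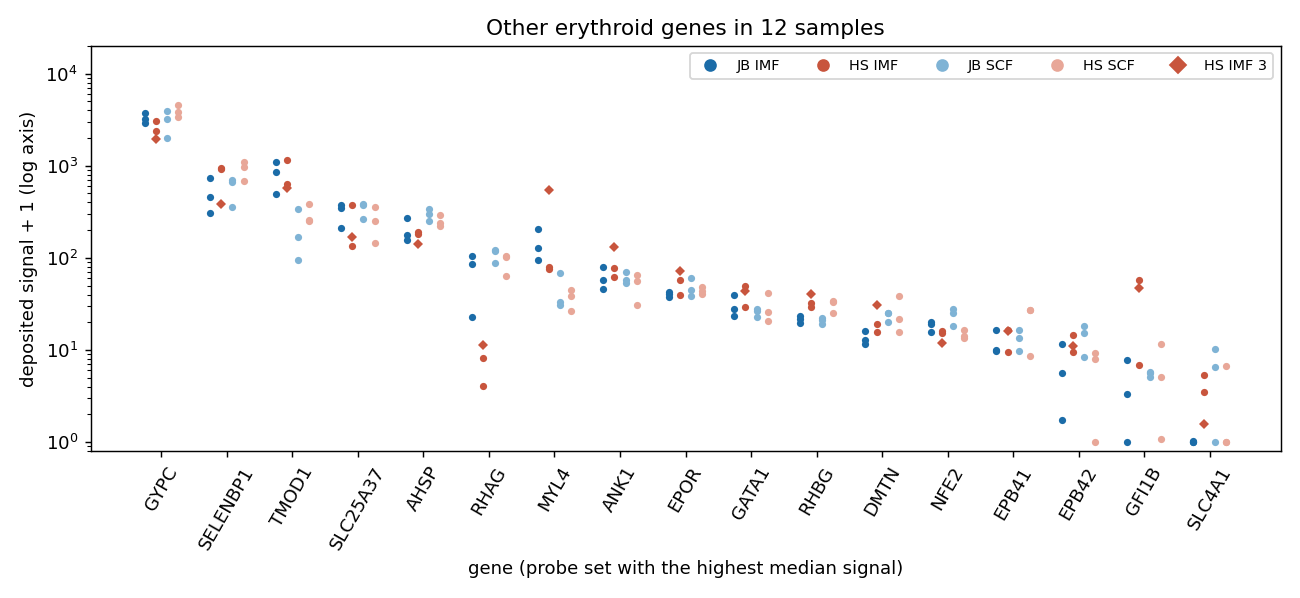
Deposited signal plus 1 (log axis) of the 17 other erythroid genes on the array, each by its probe set with the highest median, with points for the 12 samples coloured by group. RHAG sits at 3.06 to 10.4 in HS IMF and at 22.0 to 122 in the others, and SLC4A1 does not exceed 9.20 in any sample.

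Globins made outside red cells differed between the depots. MB, myoglobin, the oxygen store of muscle fibres, rose in IMF by 6.95 ± 0.47 (SE; limma, Benjamini-Hochberg adjusted p = 2.25e-06), with signals of 5096 to 13492 against 26.2 to 450. CYGB, cytoglobin, a globin of fibroblast-like cells, fell by 1.46 ± 0.41 (limma, adjusted p = 0.0392), where its SCF signals of 271 to 1618 overlapped those in IMF, 101 to 298. That call was lost in 9 of 21 other settings, each without 1 sample: any of JB IMF 1, 2 and 3, JB SCF 5 and 6, HS IMF 2 and HS SCF 4, 5 and 6 (limma, adjusted p up to 0.103). In the same comparison 10 of 12 skeletal muscle fibre genes rose, where 4.66% of all tested probe sets did. Among them was TNNT3, fast troponin T (7.10 ± 0.33, limma, adjusted p = 1.46e-07). The summed signal of those 12 was 58252 to 130806 in the intramuscular groups and 4333 to 26786 in the subcutaneous ones. It holds MYH7 and CKM, the genes of the 12 not called, by their brightest probe sets. Those gave 2082 to 5926 and 2609 to 4764 in IMF, and 1923 to 4408 and 1588 to 4850 in SCF. Another tested probe set of each separated the depots. These gave 2579 to 12021 and 6030 to 11224 in IMF, and 0.01 to 253 and 0.12 to 316 in SCF. The part of the muscle genes in the erythroid values was not tested.

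The enzymes of heme synthesis that all cells use showed no called difference. All 9 on the array of 14 listed were tested, and 0 passed by limma with Benjamini-Hochberg adjustment in any of the 6 comparisons. At an unadjusted p under 0.05 it was 0 of 9 between the breeds in either depot, 0 within JB and in the interaction, 1 between the depots over both breeds and 1 within HS. Of all tested probe sets, 10.2% had such a p between the breeds in IMF, 3.56% in SCF and 2.14% in the interaction. Between the depots it was 27.2% over both breeds, 13.3% within JB and 21.4% within HS. Between the breeds in IMF their median was −0.07, with 5 of 9 negative. FECH, ferrochelatase, which puts the iron into heme, differed by 0.40 ± 0.29 (limma, adjusted p = 0.598) and SLC25A38, the mitochondrial glycine carrier, by 0.28 ± 0.27 (limma, adjusted p = 0.705), the sign opposite to that of ALAS2. UROD, a decarboxylase of the pathway, was read by probe sets that disagree. One gave 30.3 to 52.2 in 10 samples but 4522 in HS IMF 3 and 417 in HS SCF 5, and the brighter one gave 293 to 940, with 449 in HS IMF 3.

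Of 8 tested genes that clear heme and haemoglobin, 1 fell in IMF and 0 rose, where 6.33% and 4.66% of all tested probe sets did. By their means 7 of the 8 were lower in IMF, with a median of −0.54 beside −0.06 for all probe sets tested. At an unadjusted p under 0.05 by limma it was 5 of 8 between the depots, against 27.2% of all tested probe sets. BLVRA, biliverdin reductase A, fell by 0.85 ± 0.22 (SE; limma, Benjamini-Hochberg adjusted p = 0.0302), from SCF signals of 246 to 414 and IMF signals of 85.3 to 246. The call was lost without any of JB IMF 1 and 3, JB SCF 5 and 6 and HS SCF 5 and 6 (limma, adjusted p up to 0.0880). Between the breeds 0 of the 8 passed by limma in either depot. At an unadjusted p under 0.05 it was 1 in each, where 10.2% of all tested probe sets passed in IMF and 3.56% in SCF.

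Other blood and vessel cells were read beside the globins. Of 6 neutrophil genes tested, 3 fell in IMF against SCF and none rose, where 6.33% and 4.66% of all tested probe sets did. Those that fell were the calcium-binding alarmins S100A8 (−2.39 ± 0.53 SE, limma, Benjamini-Hochberg adjusted p = 0.0144) and S100A12 (−2.13 ± 0.59, limma, adjusted p = 0.0398) and the cathelicidin CATHL5 (−2.62 ± 0.70, limma, adjusted p = 0.0337). Within HS CATHL5 was at −4.10 (limma, adjusted p = 0.0456), a call lost in 14 of 20 other settings. The summed signal of the 16 neutrophil genes was 597 to 2480 in JB IMF, 674 to 787 in HS IMF, 3707 to 5311 in JB SCF and 1317 to 8118 in HS SCF. All HS IMF samples, and also JB IMF 1 at 810 and JB IMF 3 at 597, lay below every subcutaneous sample in neutrophil signal. Of 8 lymphocyte genes JCHAIN, the immunoglobulin joining chain, fell by 2.29 ± 0.54 (limma, adjusted p = 0.0185), and of 10 endothelial genes ROBO4, a vessel-specific guidance receptor, fell by 0.91 ± 0.21 (limma, adjusted p = 0.0178). Of 10 adipocyte genes AQP7, the glycerol channel, fell by 1.18 ± 0.33 (limma, adjusted p = 0.0416). In each of these 3 lists 1 gene fell by adjusted p and 0 rose, beside the same 6.33% and 4.66%. All 10 adipocyte genes were lower in IMF by their means, with a median of −0.89. At an unadjusted p under 0.05 by limma it was 8 of 10 against 27.2% of all tested probe sets. Among the calls over both breeds in this paragraph S100A8 held in all 21 other settings, and the others were lost without at least 1 single sample.

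Of 3 platelet genes 0 passed in any comparison by limma. At an unadjusted p under 0.05 it was 0 between the breeds in either depot and in the interaction, and 1 in each depot comparison. Of all tested probe sets, 10.2% had such a p between the breeds in IMF, 3.56% in SCF and 2.14% in the interaction. Between the depots it was 27.2% over both breeds, 13.3% within JB and 21.4% within HS. The summed signal of the 4 platelet genes on the array was 470 to 867 in JB IMF, 243 to 647 in HS IMF, 388 to 970 in JB SCF and 479 to 635 in HS SCF. In IMF between the breeds TUBB1, the platelet beta tubulin, was at −0.73 ± 0.40 (adjusted p = 0.519) and ITGB3, an integrin of the fibrinogen receptor, at 0.69 ± 0.50 (adjusted p = 0.606). The part of these cell types in the erythroid values was not tested.

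The named genes whose profile was most like the mean of the 4 genes were SLC39A4 (r = 0.96), MAPK8IP1 (0.95), EVC and LAD1 (both 0.94), ZSCAN31, GTPBP1, CDK10, PIK3R4, TUBB4A and BATF (0.93 to 0.94) over the 12 samples. SLC39A4 encodes a zinc importer, MAPK8IP1 a kinase scaffold and BATF a leucine zipper factor of immune cells. None of the 10 was in an erythroid, blood or other list used here. By deposited signal all but EVC, which peaked in HS SCF 4, were highest in HS IMF 3. Of all tested probe sets 21.8% were highest there, counted on another scale, after quantile normalization. Without HS IMF 3, SLC39A4 had r = 0.90 and the others 0.73 to 0.84, and 2 of the 10 genes most like the mean were shared with the list above.

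Genes of the red cell lineage were not among those most like the mean. EPOR, the erythropoietin receptor, came nearest with r = 0.89, or 0.57 without HS IMF 3. ANK1 had r = 0.70 and MYL4 0.65, or −0.17 and −0.20 without HS IMF 3. The others tested were SELENBP1 at 0.27, TMOD1 at 0.25, AHSP at 0.19, SLC25A37 at −0.11, GYPC at −0.25 and RHAG at −0.39. The median r was 0.25 over the 9 other erythroid genes and −0.19 over all tested probe sets, or −0.13 and −0.05 without HS IMF 3. Of the genes most like the second HBB probe set, HBG led, followed by PDHB (r = 0.92), a subunit of pyruvate dehydrogenase whose signal ran from 0.28 to 4402. PNISR (r = 0.91) and CIAO2B (r = 0.87), an iron-sulfur assembly factor with signals of 33.1 to 20802, came next. None of those 10 was among the 10 most like the mean of the 4 genes.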

How the data were processed

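The authors deposited linear intensity values of 24128 probe sets in 12 samples. Per the labels' protocols, biotin-labelled cRNA was made from total RNA. Affymetrix Expression Console 1.1 and GCOS 1.1.1 were used by the authors, per the submitters' processing notes. How signals were summarized and normalized is not given in the sources used here, and no detection calls were used.

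Here the signals were turned into log2(signal + 16), a scale that understates differences of dim genes, and quantile normalized. The 112 control probe sets were left out, then the 30% of 24016 with the lowest mean, leaving 16811. A model of the 4 group means was fitted in R 4.3.3 by limma 3.58.1 with moderated variances (residual degrees of freedom 8, prior 4.05), with Benjamini-Hochberg adjustment over all 16811 in each of 6 comparisons, threshold 0.05. Correlations used 100000 permutations, two-sided. With 3 arrays a group, precision is limited by their number. The fit was tested on simulated data.

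The genes and the 10 lists were chosen with earlier results of these data known. Named were all their probe sets; of each list, genes past the threshold (at most 4 a comparison, by smallest p), otherwise the 2 smallest p between breeds in IMF; and the 10 genes with the highest r to the mean of the 4 genes. Of muscle genes 1 example is given. A listed gene counts once, by its brightest tested probe set. Gene names came from GEO's platform annotation (1 symbol for 13292 of the 24016 probe sets, several for 86, none for 10638). Symbols were updated by Entrez identifier (13283 of 13318 matched). Alternatives were a pseudocount of 1, deposited or median-centred values, no filter or 50% left out as dim, a trended and robust variance, array weights, the compared groups alone, a replicate block, each sample left out, and HS IMF 3 and HS SCF 4 both left out. Figures used matplotlib 3.10.9.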

Additional observations from a re-analysis of the deposited data

Results flagged for a closer look

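In the 6 IMF or 6 SCF samples of a depot, a sample was set apart when its gap to the nearest other exceeded 0.625 of the whole range on the normalized log2 scale. Of 44 such groups 7 had one. Chance alone gives about 1 in 20 for a single group from a single population. These groups share arrays, mix both breeds and include genes named for passing in these data. The 7 of 44 can therefore not be read against that rate. In 3 of them the sample was HS IMF 3, the highest of the intramuscular samples for ALAS2 (gap 0.761 of the range), HBE1 (0.643) and HBG on probe set 3.A1_x (0.662); these 3 share that array and are not separate signs. The signal of ALAS2 there was 88.1, against 34.3 to 48.1 in the other intramuscular samples.

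The remaining 4 were genes of other cells. S100A8 was highest in JB IMF 2 (gap 0.777, signal 977) and JCHAIN in HS IMF 1 (0.631, signal 439). Among the subcutaneous samples MB was highest in JB SCF 6 (0.752, signal 450) and S100A12 lowest in HS SCF 4 (0.639, signal 115).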

How the results depend on the processing

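Over 592 values of the 30 erythroid differences under other settings, 571 kept their sign and their side of the threshold, 20 turned sign and 1, HBB within JB with array weights (−1.21, limma adjusted p = 0.0314), passed, so that 1 of 5 passed there. HBA was below the dim filter in some settings. Signs turned without HS IMF 3 and HS SCF 4 for HBB (0.23) and ALAS2 (−0.033) between depots and the second HBB probe set in the interaction (0.026), and with array weights within JB for that probe set (−0.15) and HBM (−0.11). Leaving out 1 sample, the ranges in SCF between breeds were −0.11 to 0.18 for HBA, −0.23 to 1.37 for HBB, −2.22 to 0.28 for the second HBB probe set and −0.21 to 0.069 for ALAS2. Over both breeds the depot range was −0.43 to 0.36 for HBB. Within JB the ranges were −0.25 to 0.091 for HBA, −0.89 to 1.56 for the second HBB probe set, −0.037 to 0.19 for HBM and −0.22 to 0.054 for ALAS2. The r of HBA and ALAS2 ran from −0.11 to 0.85. Pairs with an adjusted p under 0.05 were 2 with median centring and 4 with the second HBB probe set, chosen after seeing the data, in place of 0. The latter count includes HBA with HBM and HBM with ALAS2, which do not use that probe set. Their unadjusted permutation p stayed at 0.0199 and 0.0209, and only the set of pairs adjusted together changed. The mean of the 4 genes in HS IMF 3 exceeded the median of the others by 1.84, and by 1.1 in the values as deposited.

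Sample numbers are shared by the breeds within a depot, but same-numbered samples did not deviate together (correlations 0.09, 0.12 and −0.04 in IMF, −0.16, −0.01 and −0.28 in SCF). With the number as a replicate block 0 of 5 erythroid probe sets passed, HBB in IMF stayed at −1.53 (limma adjusted p = 0.588), and 2 probe sets of all passed between breeds in IMF in place of 4. Counts of all probe sets in IMF and SCF between breeds, 4 and 1 as reported, were 2 and 0 with a pseudocount of 1, 0 and 12 with array weights and 0 and 0 with the compared groups alone, and 0 to 7 in IMF with 1 sample left out. Between depots, as reported 1848 in all, 516 in JB and 558 in HS, they were 3154, 4340 and 184 with array weights; 1038 and 158 in JB and HS with the compared groups alone; and 923 to 2338, 218 to 712 and 191 to 1117 with 1 sample left out. Without HS IMF 3 and HS SCF 4 they were 842 in JB, 2 in SCF between breeds and 1 in the interaction.

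Between depots S100A8, MB, TMOD1 and RHAG passed in every setting that tested them over both breeds. S100A12 passed in 12 of 21 (limma adjusted p up to 0.107), CATHL5 in 14 of 20 (0.0900) and AQP7 in 8 of 21 (0.105); each was lost without JB IMF 1, without JB IMF 3 and without further single samples. JCHAIN was lost without JB IMF 1 and without JB SCF 5 (0.0527), ROBO4 without JB IMF 1 (0.0572), and TMOD1 within JB without JB IMF 1 or 3 or JB SCF 5 or 6 (0.0955). RHAG within HS was lost with array weights (0.157) and without HS IMF 3 and HS SCF 4 (0.0533). The causes were not tested.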
